A study of Mus musculus with 12 samples.

Results

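Cytosolic nucleic acid sensors are proteins that detect foreign or misplaced RNA and DNA inside the cell. A set of 8 genes was examined here. They were taken by name, as sensors of foreign RNA and DNA and their adaptors, with earlier results of these data known. It holds the RNA receptor genes Ddx58, Ifih1 and Dhx58, the Z-form nucleic acid sensor gene Zbp1, the double-stranded RNA binding enzyme genes Eif2ak2 and Adar, and the adaptor genes Mavs and Tmem173. The count table listed 54232 genes, and all 8 members were in it. All 8 also passed the filter on low counts and belonged to the 13129 genes tested.

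The libraries came from tumors of MC38 cells, a transplantable colon adenocarcinoma line of the mouse, from which NK and CD8+ T cells had been sorted for RNA sequencing. The mice were wild-type (WT), lacked TYK2 (labelled TYK2KO, here KO) or carried kinase-inactive TYK2 with the K923E substitution (labelled TYK2KE, here KE), all on a C57BL/6N background and 6 to 12 weeks old. Each of the 6 groups had 2 libraries of 300 sorted cells, taken from tumors 8 to 10 days after injection. NK cells were CD45+ CD3ε- NK1.1+ and T cells were CD45+ CD3ε+ CD8a+. All mice carried tumors and none received a further treatment, so that the groups hold no cells of tumor-free mice. For the tumor experiments the methods of the study give the knockout strain without a CMV-cre transgene, whereas the supplementary sample names of the tumor KO libraries contain CMV, and the labels give only TYK2KO. The mutations were carried in the germ line and so affect every host cell, while the injected tumor cells were the same line in all mice. Whether the libraries of a group came from separate mice is not given in the sources used here, so p-values measure the spread between libraries, which may be technical.

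The RNA receptors RIG-I (Ddx58) and MDA5 (Ifih1) bind viral or misplaced double-stranded RNA and signal through MAVS on mitochondria, and LGP2 (Dhx58) modulates both. STING (Tmem173) relays signals from the DNA sensor cGAS. Both adaptors lead to the production of type I interferons, and the type I interferon receptor in turn signals through TYK2 and JAK1. Ddx58, Ifih1, Dhx58, Zbp1, Eif2ak2 and Adar are known as interferon-inducible genes, so that the sensors sit both upstream and downstream of interferon.

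The 250 bases before the RefSeq start (GRCm38.p6) are shown for the receptor genes Ddx58 and Ifih1 and for the kinase gene Eif2ak2, because factors activated by interferon receptors act on sequence of this kind. Capitals mark matches on either strand to an IRF core (AANNGAAA or TTTCNNTT), to an ISRE-like motif (GAAA, any 2 bases and GAAA again, or its reverse complement) or to a GAS-like motif (TTCNNNGAA, which reads the same on both strands).
Ddx58 (chr4:40239826-40240075, minus strand): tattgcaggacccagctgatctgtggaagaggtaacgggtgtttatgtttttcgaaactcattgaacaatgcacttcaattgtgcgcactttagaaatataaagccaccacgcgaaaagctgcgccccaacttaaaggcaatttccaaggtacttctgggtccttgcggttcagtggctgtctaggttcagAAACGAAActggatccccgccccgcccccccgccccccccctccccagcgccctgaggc
Ifih1 (chr2:62646256-62646505, minus strand): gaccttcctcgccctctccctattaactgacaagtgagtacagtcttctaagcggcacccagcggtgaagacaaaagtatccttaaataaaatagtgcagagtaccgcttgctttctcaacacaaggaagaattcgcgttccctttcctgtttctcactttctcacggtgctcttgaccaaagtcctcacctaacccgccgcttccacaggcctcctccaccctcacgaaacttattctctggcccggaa
Eif2ak2 (chr17:78882573-78882822, minus strand): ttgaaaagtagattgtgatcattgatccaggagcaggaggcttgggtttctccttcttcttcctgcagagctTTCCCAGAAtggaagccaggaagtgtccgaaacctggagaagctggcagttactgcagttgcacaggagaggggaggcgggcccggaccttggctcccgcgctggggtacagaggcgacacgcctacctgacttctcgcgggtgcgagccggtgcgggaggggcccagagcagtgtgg
The Ddx58 window held 1 IRF core match, AAACGAAA, which lay 59 to 52 bases before the start. The Eif2ak2 window held 1 GAS-like match, TTCCCAGAA, at 178 to 170 bases before the start. No match to any of these motifs was found in the Ifih1 window, in the windows of the 3 Adar starts or in that of Mavs. Among the windows of the same length before 32851 starts, 21.3% held an IRF core, 2.98% an ISRE-like motif and 7.02% a GAS-like motif. Every ISRE-like match contains an IRF core match. The IRF core was added to the search after the ISRE-like motif had found no match in these windows. Dhx58, Zbp1 and Tmem173 were not matched in the promoter table.

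Total counts ranged from 10378761 to 14732882 per library, and mitochondrial genes took 2.40% to 7.68% of them. Levels are counts per 1e+06 reads (CPM) after TMM scaling, which adjusts for differences in composition between libraries. Pearson's r of log2 CPM over the genes tested, which are not independent, was 0.747 to 0.793 between the libraries of a group, and the common biological coefficient of variation was 109%. Tyk2 itself did not separate the genotypes, since its level was 60.8 and 68.9 CPM in NK WT, 56.3 and 105 in NK KO, 119 and 82.3 in NK KE, 48.3 and 86.1 in CD8 WT, 61.9 and 73.8 in CD8 KO, and 58.9 and 46.7 in CD8 KE. Therefore the labels could not be checked on this gene and the groups are the libraries labelled KO and KE. The genes of the sort gate followed the cell type labels. Klrb1c, which encodes NK1.1, was at 1066 to 2247 CPM in NK and 1.41 to 5.05 CPM in CD8 libraries, Cd3e at 7.17 to 51.7 CPM in NK and 581 to 1452 CPM in CD8 libraries, and Cd8a at 2.7 to 4.52 CPM in NK and 2825 to 4086 CPM in CD8 libraries. Ptprc, the CD45 gene, was at 1677 to 3341 CPM in all libraries, and Ncr1, an NK cell gene outside the gate, was at 843 to 2298 CPM in NK and 1.03 to 1.99 CPM in CD8 libraries. The summed level of 15 myeloid markers, genes of macrophages and monocytes that the NK1.1 gate should leave out, was 16710.4 and 14489 CPM in NK WT, 7307 and 27.4 CPM in NK KO and 68.8 and 433 CPM in NK KE. In the CD8 libraries it was 63.2 to 607 CPM. All 15 myeloid markers were above 3 counts in both NK WT libraries, while 2 and 7 of them were at or under 3 counts in NK KO and 7 and 3 in NK KE. Thus, the NK mutant libraries all had a lower myeloid sum than the NK WT libraries, and the NK KO libraries differed widely from each other. Since no NK mutant library reached the myeloid sum of an NK WT library, NK genotype and myeloid transcripts cannot be told apart in these libraries.

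Across both cell types, Zbp1 fell in Tyk2 mutant libraries and was the only member past the threshold. Genes were called differentially expressed (DEG) by edgeR where the FDR, which is the Benjamini-Hochberg adjusted p over all 13129 genes, was below 0.05 and the log2 fold change was 1 or more in size. In the comparison of all mutant with all WT libraries, 1 of 8 members was a DEG, beside 51 of 13129 genes (0.388%) in the same direction. All 8 members had estimates below 0, with a median of -1.05 on the log2 scale against -0.04 over all genes tested. At an unadjusted p under 0.05, 3 members were lower (Zbp1, Ddx58 and Dhx58), beside 6.91% of all genes, and none was higher, beside 3.05%. Zbp1 and Dhx58 were lower in all 4 mutant libraries than in both WT libraries of each cell type, a separation found for 1.58% of the genes tested.

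**Figure D1:**
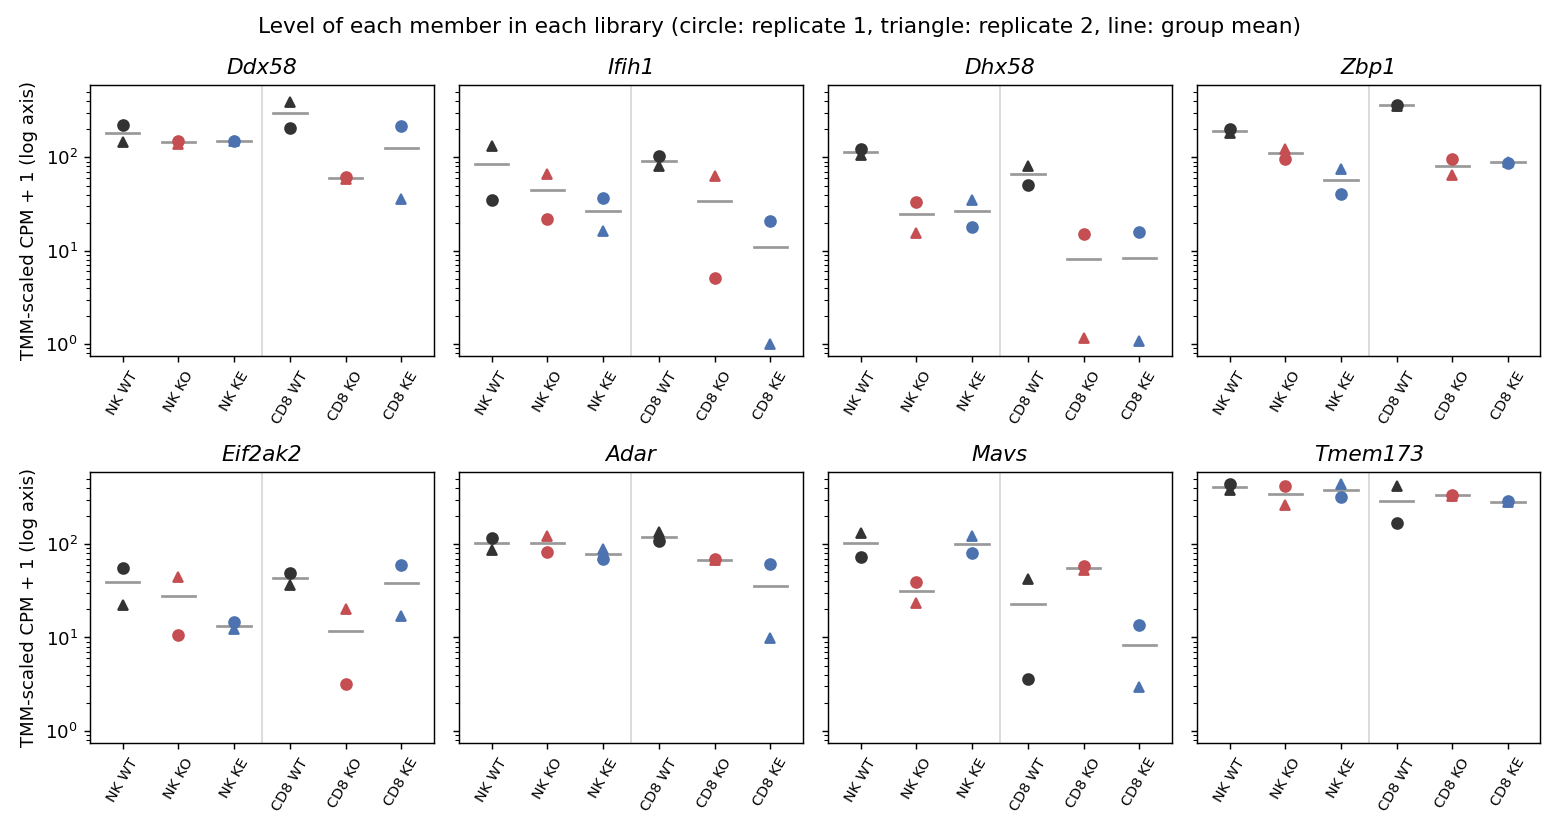
TMM-scaled CPM plus 1 on a log axis for each of the 8 members in each of the 12 libraries (circles replicate 1, triangles replicate 2, grey lines group means; black WT, red KO, blue KE). Zbp1 and Dhx58 lie lower in every mutant library than in the WT libraries of the same cell type, while Tmem173 stays between 166 and 441 CPM in all libraries.

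Zbp1 encodes a sensor of Z-form RNA and DNA that can trigger necroptosis and apoptosis through RIPK3 and RIPK1. It lies on chromosome 2 at 173206612 to 173218923 (GRCm38, minus strand). In CD8+ T cells Zbp1 was at 362 and 358 CPM in WT, 95.1 and 64.0 CPM in KO, and 86.6 and 88.2 CPM in KE. All 4 mutant libraries lay below both WT libraries, and the KO and KE libraries overlapped. The decrease was 4.32-fold for both mutants together (log2 fold change -2.11 ± 0.29 SE, edgeR FDR = 0.0259), the 1 member called, where 22 of 13129 genes (0.168%) were DEG in this direction. Each mutant on its own did not pass in edgeR, with -2.18 ± 0.37 and FDR = 0.131 for KO and -2.04 ± 0.37 and FDR = 0.115 for KE. DESeq2 called both, with adjusted p = 2.93e-05 and 9.28e-05. The call of the joint decrease rests on a narrow margin, since edgeR's FDR was 0.132 on the 6 CD8 libraries alone. DESeq2 also called it, as did edgeR with DESeq2 size factors or with no filter on low counts. With the myeloid marker sum or the replicate number in the model it was not called. The estimate itself ranged from -2.27 to -2.02 over 18 alternative fits, 12 of them without 1 library.

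In NK cells Zbp1 was at 199 and 184 CPM in WT, 95.3 and 124 CPM in KO, and 39.6 and 74.3 CPM in KE. Again both WT libraries were above all 4 mutant libraries, and here the KO libraries were also above the KE libraries. The estimate for both mutants was -1.28 ± 0.30 SE with edgeR FDR = 0.199, while DESeq2 called it with adjusted p = 0.0133. No member was a DEG in this NK comparison by edgeR, where 4 of 13129 genes (0.0305%) were lower DEG. Zbp1 was the 1 member with an unadjusted p under 0.05, beside 6.86% of all genes, and the 1 member called by DESeq2, beside 2.32% of all genes. The KO library with 7307 CPM of myeloid markers and the one with 27.4 CPM had 95.3 and 124 CPM of Zbp1, both below the NK WT libraries. The NK WT libraries had 16710 and 14489 CPM of these markers, so both KO libraries were also below them in myeloid sum. With the log2 myeloid marker sum in the model, the estimate for NK cells was -1.25 ± 0.50 SE (FDR = 0.949), and that for both cell types moved from -1.69 ± 0.21 (FDR = 0.0076) to -1.68 ± 0.30 (FDR = 0.201). That fit called 0 of 13129 genes in either comparison. The decrease over both cell types was called in 15 of 17 alternative fits, with estimates of -1.84 to -1.60. The exceptions were the fit with the myeloid marker sum and the fit without CD8 WT replicate 1. Fewer cells of a type and less RNA per cell cannot be told apart in sorted bulk samples.

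**Figure D2:**
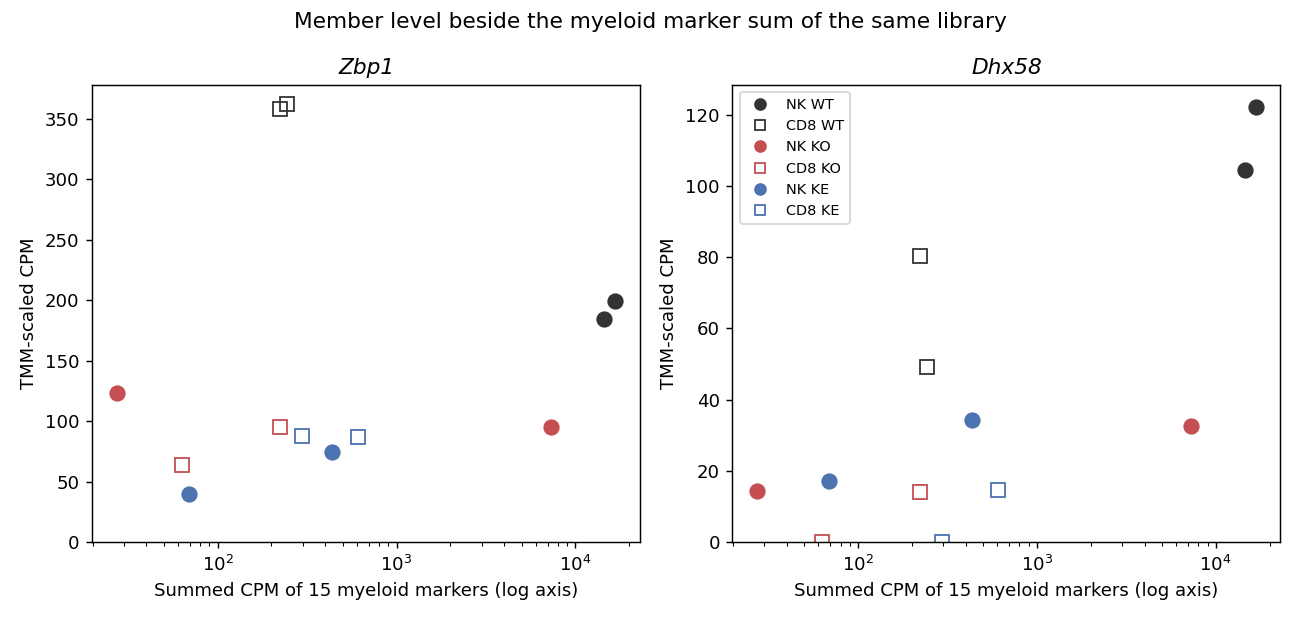
Level of Zbp1 (left) and Dhx58 (right) in TMM-scaled CPM against the summed CPM of 15 myeloid markers on a log axis, 1 point per library (filled circles NK, open squares CD8; black WT, red KO, blue KE). The CD8 WT libraries have 224 and 245 CPM of myeloid markers and the highest Zbp1 levels, while the NK WT libraries have the highest myeloid sums and the highest Dhx58 levels. The NK KO library with 7307 CPM has less Zbp1, less Dhx58 and a lower myeloid sum than either NK WT library.

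The KO and KE groups differed in Zbp1 by an estimate of 0.94 ± 0.36 SE in NK cells, higher in KO (unadjusted p = 0.024, edgeR FDR = 1.00), and by -0.14 ± 0.35 in CD8+ T cells. The effect of both mutants was 0.83 ± 0.43 SE smaller in NK than in CD8 cells on the log2 scale (edgeR unadjusted p = 0.0831, FDR = 0.903). For KO alone that difference was 1.37 ± 0.50 (edgeR unadjusted p = 0.0205, FDR = 0.89), a comparison added after the values had been seen. In WT, Zbp1 was 0.91 ± 0.36 lower in NK than in CD8 cells, with FDR = 0.418.

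The 3 RIG-I-like receptor genes had estimates below 0 in each cell type, and none of them passed the threshold in edgeR. Ddx58 (chromosome 4, 40203773 to 40239828, minus strand), the RIG-I gene with the IRF core match above, was at 205 and 389 CPM in CD8 WT, 61.5 and 58.4 CPM in KO, and 218 and 34.7 CPM in KE. The KO libraries were both low, whereas 1 KE library was at the WT level and the other was the lowest of the CD8 libraries. The KO estimate was -2.31 ± 0.68 SE with edgeR FDR = 0.857, and DESeq2 called it with adjusted p = 0.0303. For KE it was -1.23 ± 0.65 with FDR = 0.793, and it ranged from -3.10 without KE replicate 1 to -0.45 without KE replicate 2. Taking both mutants together gave -1.77 ± 0.54 (unadjusted p = 0.00763, FDR = 0.536), which ranged from -2.7 without CD8 KE replicate 1 to -1.24 without CD8 WT replicate 2. Leaving out 1 library gave an FDR of 0.0219 to 0.805, and the gene was called in 1 of these 12 fits, the one without CD8 KE replicate 1. In NK cells Ddx58 was at 220.2 and 146 CPM in WT, 150.0 and 139.7 CPM in KO, and 149.8 and 148 CPM in KE, and the groups overlapped. The NK estimate was -0.32 ± 0.55, and the difference in mutant effect between NK and CD8 cells was 1.45 ± 0.79 (FDR = 0.921), with 0.92 without CD8 WT replicate 2 and 2.38 without CD8 KE replicate 1.

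Ifih1, the MDA5 gene (chromosome 2, 62595798 to 62646255, minus strand), was at 102 and 80.8 CPM in CD8 WT, 4.06 and 61.8 CPM in KO, and 19.8 and 0 CPM in KE. The library at 0 had no read in 14250553, and a count of 0 allows up to 0.22 CPM, counting error only. All 4 mutant CD8 libraries were below the WT libraries, but they spread widely, and the estimate was -2.34 ± 1.44 SE (FDR = 0.786). It ranged from -7.34 without KE replicate 1, which leaves the KE library at 0, to -1.84 without KE replicate 2. In NK cells its levels were 34.4 and 132 CPM in WT, 21.0 and 65.7 CPM in KO, and 35.8 and 15.4 CPM in KE. These overlapped, with an estimate of -1.33 ± 1.45 (FDR = 0.971) that ranged from -1.99 without WT replicate 1 to -0.06 without WT replicate 2. With the myeloid marker sum in the model the NK estimate was -2.93 ± 2.47.

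Dhx58, the LGP2 gene (chromosome 11, 100694884 to 100704271, minus strand), had the largest estimate of the members for both mutants together in the main fit of each cell type. Its levels were 122 and 104 CPM in NK WT, 32.6 and 14.3 CPM in NK KO, and 17.1 and 34.4 CPM in NK KE. CD8 WT libraries held 49.1 and 80.2 CPM, KO libraries 14.0 and 0.166 CPM, and KE libraries 14.7 and 0.0732 CPM. The lowest CD8 KO and KE libraries had 2 and 1 reads and lay under the floor of 3 counts, whereas the other library of each group had 183 and 178 reads. Both mutants together gave -2.20 ± 1.42 SE in NK cells (FDR = 0.745), -3.16 ± 1.44 in CD8+ T cells (FDR = 0.723) and -2.68 ± 1.01 over both (unadjusted p = 0.0231, FDR = 0.385). With the myeloid marker sum in the model, the estimate was -0.61 ± 2.55 in NK cells and -1.97 ± 1.55 over both cell types. Without any 1 library the CD8 estimate ranged from -6.40 (without KE replicate 1) to -2.66 (without KE replicate 2), and without CD8 KO replicate 1 it was -5.83. Over both cell types the range was -4.30 to -2.43, without the same CD8 KE libraries. Dhx58 shares exon sequence with the gene Dhx58os on the opposite strand. The counting is not stated to use strand, so that it is not known whether reads of these genes were kept apart.

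**Figure D3:**
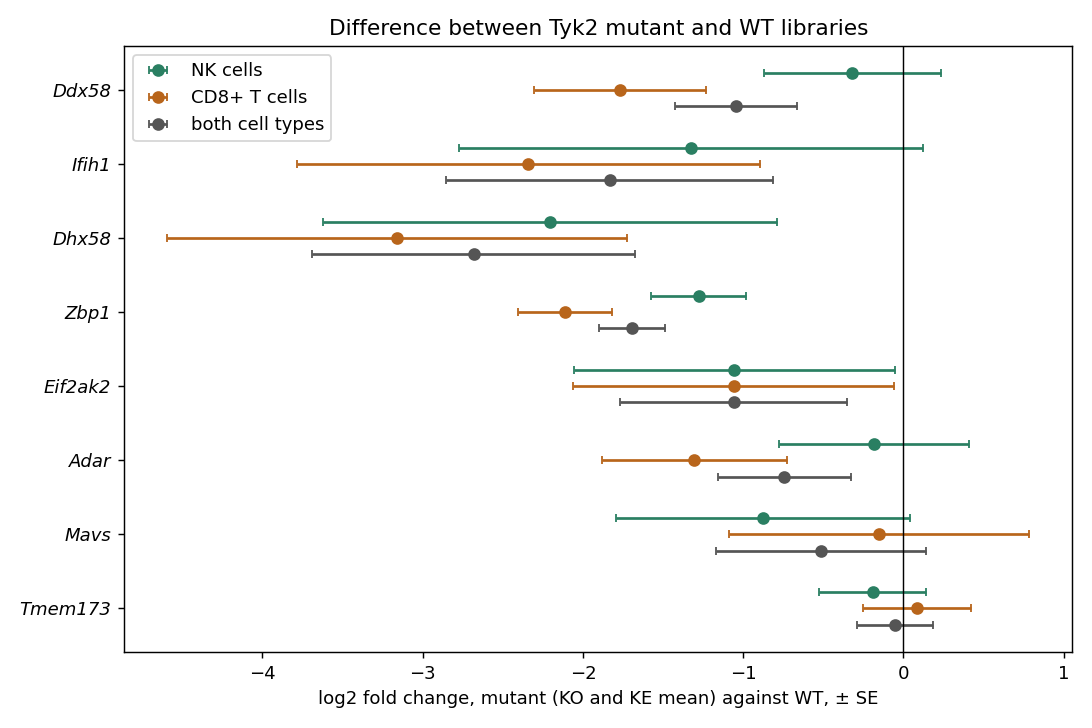
log2 fold change of both mutants together against WT (x axis) with SE bars for the 8 members in NK cells (green), CD8+ T cells (orange) and both cell types (grey). The smallest SE belongs to Zbp1, and the estimates of Ifih1 and Dhx58 are larger than or close to that of Zbp1 but have SE of 1.01 to 1.45.

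Neither of the double-stranded RNA binding enzymes passed the threshold. Eif2ak2 encodes PKR, a kinase that phosphorylates eIF2α and so stops translation (chromosome 17, 78852564 to 78882573, minus strand), and its promoter window held the GAS-like match. It was at 54.8 and 21.1 CPM in NK WT, 9.70 and 44.0 CPM in KO, and 13.6 and 11.2 CPM in KE. In CD8+ T cells it was at 48.2 and 35.8 CPM in WT, 2.14 and 19.4 CPM in KO, and 58.9 and 16.2 CPM in KE. Thus, both NK KE and both CD8 KO libraries were below WT, while NK KO and CD8 KE overlapped with WT. The estimate was -1.06 ± 1.00 SE in either cell type (FDR = 0.933 in NK and 0.951 in CD8). Leaving out 1 library moved it in NK cells from -1.80 (without KO replicate 2) to -0.21 (without WT replicate 1), and in CD8+ T cells from -2.26 (without KO replicate 2) to -0.64 (without KO replicate 1). With the myeloid marker sum in the model the NK estimate was -2.86 ± 1.57. An exon of Gm26637 lies opposite to exons of Eif2ak2.

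Adar encodes the enzyme ADAR1, which edits adenosine to inosine in double-stranded RNA and so keeps cellular RNA from activating MDA5 (chromosome 3, 89715022 to 89753446, plus strand). Its NK levels were 116 and 86.0 CPM in WT, 80.6 and 122 CPM in KO, and 68.2 and 88.2 CPM in KE, and the groups overlapped (-0.18 ± 0.59 SE, FDR = 1.00). CD8 libraries held 106 and 133 CPM in WT, 67.7 and 67.0 CPM in KO, and 60.8 and 8.86 CPM in KE, with all mutant libraries below WT. The CD8 estimate was -1.30 ± 0.58 (unadjusted p = 0.0468, FDR = 0.723), which split into -0.83 ± 0.70 for KO and -1.78 ± 0.71 for KE. Without KE replicate 2, the library at 8.86 CPM, the CD8 estimate was -0.90 and that of KE -0.98, and without KE replicate 1 they were -2.29 and -3.75. Adar shares exon sequence with Chrnb2 on the other strand.

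With each mutant set against WT on its own, edgeR called 0 members in all 4 comparisons, beside 0 of 13129 genes that were lower DEG in either NK mutant, 4 (0.0305%) for CD8 KO and 6 (0.0457%) for CD8 KE. At an unadjusted p under 0.05, Zbp1 was lower in NK KO (1 member, beside 4.02% of all genes) and in NK KE (1 member, beside 3.98%). In CD8+ T cells Zbp1 and Ddx58 were lower at this p in KO (2 members, beside 2.57%) and Zbp1 and Adar in KE (2 members, beside 3.04%). DESeq2 called 0 lower members for NK KO (beside 1.93% of all genes), 1 for NK KE (Zbp1, beside 2.08%), 2 for CD8 KO (Zbp1 and Ddx58, beside 0.944%) and 1 for CD8 KE (Zbp1, beside 1.49%). Both libraries were below both WT libraries for 3 members in NK KO (Dhx58, Zbp1 and Mavs, beside 18.9% of all genes), 3 in NK KE (Dhx58, Zbp1 and Eif2ak2, beside 19.1%), 6 in CD8 KO (beside 15.4%) and 4 in CD8 KE (Ifih1, Dhx58, Zbp1 and Adar, beside 16.3%). The members outside the 6 of CD8 KO were Tmem173, which overlapped, and Mavs, which was above WT in both libraries as were 16.7% of all genes. The KO and KE comparisons share the WT libraries of their cell type and so are not independent.

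Over the CD8 comparison of both mutants with WT, 3 members (Zbp1, Ddx58 and Adar) had an unadjusted p under 0.05 and a lower level, beside 4.39% of all genes tested. In 4 members (Ifih1, Dhx58, Zbp1 and Adar) all mutant CD8 libraries were below both WT libraries, as in 7.54% of the genes tested. The corresponding NK count was 2 members (Dhx58 and Zbp1), beside 10.8%. The median estimate of the members was -1.54 in CD8 cells, where the median of all genes was 0 (-0.01 over those with a read in a CD8 library), and -0.97 in NK cells, where it was -0.05. CD8 KE replicate 2 was the lowest CD8 library for Ddx58, Ifih1, Dhx58, Adar and Mavs, but not for Zbp1, Eif2ak2 and Tmem173. The CD8 values of these members are therefore not independent.

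Neither adaptor gene passed the threshold in edgeR or DESeq2 in any comparison. Mavs encodes the mitochondrial adaptor of RIG-I and MDA5 (chromosome 2, 131234063 to 131248025, plus strand). It was at 71.3 and 132 CPM in NK WT, 38.3 and 22.6 CPM in NK KO, and 80.1 and 121 CPM in NK KE. The CD8 levels were 2.59 and 41.6 CPM in WT, 57.4 and 51.3 CPM in KO, and 12.6 and 1.98 CPM in KE. So both KO libraries were below WT in NK cells (-1.74 ± 1.12 SE, FDR = 0.774) and above WT in CD8+ T cells (1.30 ± 1.11, FDR = 0.995), while the KE groups overlapped with WT in both. The test of that difference in the KO effect gave -3.04 ± 1.57 (edgeR unadjusted p = 0.0816, FDR = 0.89). KO exceeded KE in CD8+ T cells by 2.90 ± 1.17 (edgeR unadjusted p = 0.032, FDR = 1.00). In WT, NK cells were above CD8 cells by 2.20 ± 1.14 (FDR = 0.533), with 2.59 and 41.6 CPM in the CD8 WT libraries themselves. Without CD8 WT replicate 1 this estimate was 1.29 and the CD8 KO estimate 0.39, and without CD8 WT replicate 2 they were 5.28 and 4.38. The difference in the KO effect was then -2.12 and -6.12, and KO against KE in CD8+ T cells ranged from 2.11 without KE replicate 2 to 4.77 without KE replicate 1. The mutant estimates were -0.88 ± 0.92 in NK and -0.15 ± 0.94 in CD8 cells. With the myeloid marker sum in the model, that of NK mutants was -0.18, that of NK KO -1.13 and that of NK against CD8 cells in WT 1.43.

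Tmem173, the STING gene (chromosome 18, 35733679 to 35740554, minus strand), had the most even level of the members. It was at 440.2 and 383 CPM in NK WT, 423 and 259 CPM in KO, and 322 and 441 CPM in KE, and at 166 and 415 CPM in CD8 WT, 338 and 328 CPM in KO, and 289 and 279.8 CPM in KE. Every mutant group overlapped with the WT group of its cell type. The estimates were -0.19 ± 0.33 SE in NK cells, 0.08 ± 0.34 in CD8+ T cells and -0.05 ± 0.24 over both (FDR = 1.00 in each). The intervals of 1 SE about these estimates include 0.

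To compare members with each other, levels were divided by exon length (RPKM after TMM scaling). In NK WT, Tmem173 was highest with 179 ± 17.5 RPKM (SD, n = 2), followed by Zbp1 with 88.5 ± 4.88, Ddx58 with 47.3 ± 13.5, Dhx58 with 47.0 ± 5.24, Mavs with 32.8 ± 13.8, Adar with 16.8 ± 3.54, Ifih1 with 15.3 ± 12.7 and Eif2ak2 with 8.80 ± 5.53. The libraries of neighbours in this order overlapped for Ddx58 and Dhx58, for Adar and Ifih1 and for Ifih1 and Eif2ak2. In CD8 WT the order began with Zbp1 at 166 ± 1.13 RPKM and went on with Tmem173 at 126 ± 76.5, Ddx58 at 76.6 ± 33.5, Dhx58 at 26.8 ± 9.12, Adar at 19.9 ± 3.22, Ifih1 at 16.7 ± 2.74, Eif2ak2 at 9.73 ± 2.03 and Mavs at 7.14 ± 8.91. Here only Ddx58 and Dhx58, and Ifih1 and Eif2ak2, were neighbours whose libraries did not overlap. Tmem173 headed the order in all 4 mutant groups, with 148 ± 50.3 in NK KO, 166 ± 36.4 in NK KE, 145 ± 3.12 in CD8 KO and 124 ± 2.77 RPKM in CD8 KE. Zbp1 was at 36.8 ± 10.2 RPKM in CD8 KO and 40.4 ± 0.502 in CD8 KE.

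**Figure D4:**
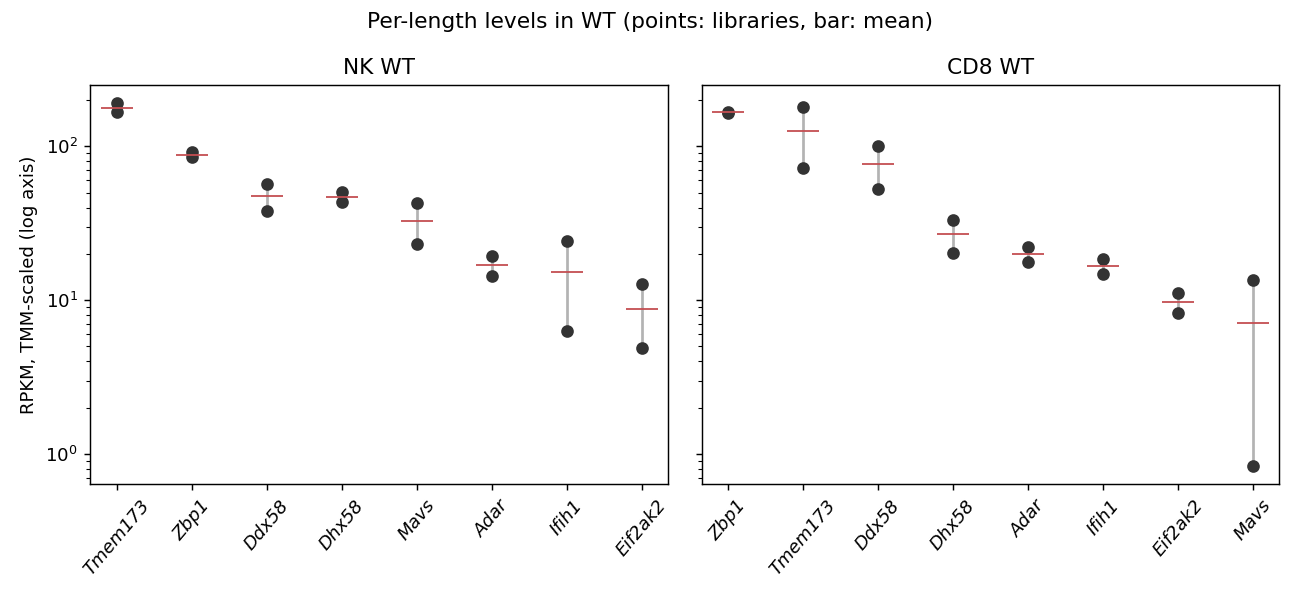
RPKM after TMM scaling (log axis) of the 8 members in NK WT (left) and CD8 WT (right), ordered by the group mean; points are the 2 libraries and red bars their mean. Tmem173 and Zbp1 take the top ranks in both, and Mavs ranks 5 in NK WT and 8 in CD8 WT.

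Between cell types edgeR called 0 members. In WT, 57 genes (0.434%) were lower and 46 genes (0.35%) higher DEG in NK than in CD8 cells. Zbp1 was the 1 member lower in NK cells at an unadjusted p under 0.05 (beside 4.83% of all genes), and 0 members were higher at this p (beside 5.52%). In mutant libraries 217 genes (1.65%) were lower and 150 genes (1.14%) higher DEG in NK cells, and 0 members had an unadjusted p under 0.05, beside 8.61% of all genes that were lower and 7.16% that were higher. DESeq2 called 0 members in WT (beside 2.86% lower and 3.44% higher) and 0 in mutants (beside 5.13% lower and 4.63% higher). Without CD8 KE replicate 1, edgeR called 2 members, Ddx58 and Adar, as higher in NK than in CD8 mutant libraries, beside 114 of 13132 genes (0.868%).

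The size of the mutant effect differed between NK and CD8 cells for 2 of 13129 genes (0.0152%), both with the higher estimate in NK cells, and for 0 members. At an unadjusted p under 0.05 there were 0 members, beside 3.31% of all genes with a lower and 2.44% with a higher estimate in NK cells, and DESeq2 called 0 members, beside 1.22% and 0.8%. Between KO and KE, edgeR called 0 genes in either cell type. The 1 member with a higher level in KO at an unadjusted p under 0.05 was Zbp1 in NK cells (beside 1.77% of all genes) and Mavs in CD8+ T cells (beside 1.97%), and 0 members were lower (beside 2.06% in NK and 1.69% in CD8 cells). DESeq2 called 0 members between KO and KE, beside 0.8% lower and 0.762% higher in NK cells and 0.518% lower and 0.678% higher in CD8+ T cells.

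Other genes of nucleic acid sensing were described by 9 lists with 100 genes, of which 97 were tested. In NK cells 0 of the 97 were DEG by edgeR and 9 by DESeq2, which called 2.32% of all genes as lower and 1.1% as higher. Of the list genes, 10 were lower and 2 higher at an edgeR unadjusted p under 0.05, beside 6.86% and 2.2% of all genes. In CD8+ T cells 1 was a lower DEG, beside 0.168% of all genes, with 9 lower and 6 higher genes at that p, beside 4.39% and 2.41%. Over both cell types 3 were lower DEG, beside 0.388% of all genes, and 0 higher, beside 0.0457%, and the median estimate was -0.05, close to the -0.04 of all genes tested.

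The 3 DEG were Samhd1, Irf7 and Trex1. Samhd1 encodes a hydrolase that removes deoxynucleotides. It was at 475 and 455 CPM in NK WT and 142 to 196 CPM in the NK mutant libraries, and at 840.4 and 621 CPM in CD8 WT and 163 to 313 CPM in the CD8 mutant libraries. It fell over both cell types by 1.55 on the log2 scale (SE 0.17, FDR = 0.00436) and in CD8+ T cells by 1.59 (SE 0.24, FDR = 0.0311). The first of these was called in 16 of 17 alternatives, all but the one with the myeloid marker sum. That fit gave -1.40 ± 0.23 SE (FDR = 0.139) and called 0 of 13129 genes. The CD8 decrease was not called on the CD8 libraries alone (-1.60 ± 0.26 SE, edgeR FDR = 0.261). Its estimate ranged from -1.80 to -1.36 without any 1 library. Irf7, the gene of a transcription factor for interferon genes that acts below MAVS and STING, was at 607 and 453 CPM in NK WT, 97.1 to 148 CPM in NK mutants, 307 and 299 CPM in CD8 WT and 18.4 to 99.3 CPM in CD8 mutants. Its decrease over both was 2.45 (log2 fold change -2.45 ± 0.38 SE, FDR = 0.0249). Trex1 encodes an exonuclease that degrades cytosolic DNA and so limits cGAS. It was at 228 and 174 CPM in NK WT and 30.3 to 64.6 CPM in NK mutants, but in CD8 cells 1 KO library with 249.6 CPM lay between the WT libraries with 287 and 225 CPM. The log2 fold change over both was -1.61 ± 0.28 (FDR = 0.0358). The calls of Irf7 and Trex1 held in 8 and 7 of 17 alternatives. With the myeloid marker sum in the model the estimates were -2.28 ± 0.58 SE for Irf7 (FDR = 0.485) and -1.37 ± 0.37 for Trex1 (FDR = 0.527). That fit called 0 of 13129 genes. Leaving out any 1 library gave -2.87 to -2.26 for Irf7 and -1.87 to -1.49 for Trex1.

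Further list genes with the smallest p in NK cells were Ifi204, Pnpt1 and Tlr8, none of which passed the threshold. Ifi204, a DNA sensor gene of the p200 family, was at 208 and 151 CPM in NK WT, 0.235 and 0 CPM in NK KO, and 14.0 and 11.5 CPM in NK KE (FDR = 0.241). Tlr8, an endosomal RNA receptor gene, had 31.1 and 32.9 CPM in NK WT, 1 read in 1 NK KO library and 0 reads in all other libraries (FDR = 0.316). These are the NK libraries in which the myeloid markers also differed. A fit with the myeloid marker sum was run for all genes, but it does not measure the part of myeloid transcripts in these values, which was not tested. Pnpt1, the gene of an RNA-degrading phosphorylase of mitochondria, was at 96.3 and 111 CPM in NK WT and 14.9 to 53.8 CPM in NK mutants (FDR = 0.281), while its CD8 levels were 67.5 to 103 CPM. In CD8+ T cells the corresponding genes were Slc19a1, Ddx60, Ifi204 and Irf5. Ddx60, the gene of a RIG-I-related helicase, was at 150.1 and 39.0 CPM in CD8 WT and 0.579 to 7.88 CPM in mutants (-4.38 ± 1.27 SE, FDR = 0.461). That estimate ranged from -5.78 without CD8 KE replicate 2 to -3.10 without CD8 WT replicate 1. Ifi204 in CD8 cells was at 52.2 and 0.145 CPM in WT and 0.146 to 6.05 CPM in mutants, so that 1 WT library carried the difference. Slc19a1, which encodes a carrier of folates and cyclic dinucleotides, went the other way with 0 and 0.145 CPM in WT and 0.332 to 113 CPM in mutants (FDR = 0.348), and so did the transcription factor gene Irf5 with 0.0741 and 0.0726 CPM in WT and 0.0765 to 53.5 CPM in mutants (FDR = 0.654).

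By list, the counts and medians were as follows. Their counts at an edgeR unadjusted p under 0.05 stand beside 6.86% lower and 2.2% higher of all genes tested in NK cells and 4.39% lower and 2.41% higher in CD8+ T cells. Nucleic acid clearance had 4 of 9 genes lower in NK cells and 3 of 9 lower in CD8+ T cells, among them Samhd1, Trex1 and Dnase2a in each, and 0 higher in either. The list's medians were -0.75 in NK cells and 0.18 in CD8+ T cells, so that the CD8 median and the CD8 counts differed in sign. Other RNA sensors and endosomal receptors had 2 of 10 lower in NK cells, with a median of -0.65, and 2 lower and 1 higher in CD8+ T cells. Of these 10 genes, Tlr3, Tlr7 and Tlr8 had no read in any CD8 library and the median of the other 7 there was -0.54. The ZBP1 cell death partners had 1 of 6 lower in CD8+ T cells and 0 in NK cells, with medians of -0.88 and -0.15. RNA editing and double-stranded RNA binding had 1 of 5 higher in CD8+ T cells and 0 in NK cells, with medians of 0.85 and 0.23. Regulators of RIG-I-like receptors and MAVS, with medians of 0.26 in NK and 0.08 in CD8 cells, had 1 of 12 lower (Trim25) and 1 higher (Mex3c) in NK cells and 2 higher (Rnf135 and Tomm70a) in CD8+ T cells. Their estimates were -2.16 for Trim25, 4.64 for Mex3c, 10.8 for Rnf135 and 1.49 for Tomm70a. The smallest edgeR FDR of this list was 0.333 in NK and 0.723 in CD8 cells, so none was called. Regulators of STING, with medians of 0.42 and -0.23, had 0 of 11 in NK cells and 1 higher (Slc19a1) in CD8+ T cells. Other DNA sensors, with medians of 0.29 and 0.08, had 1 of 15 lower in each cell type (Ifi204) and 1 higher in NK cells (Prkdc). Signalling genes below MAVS and STING, with medians of 0.06 and 0.18, had 1 of 18 lower in each (Irf7) and 1 higher in CD8+ T cells (Irf5). The PKR and eIF2α stress response, with medians of -0.06 and 0.07, had 1 of 11 lower in NK cells (Atf4) and 1 lower in CD8+ T cells (Ddit3). The genes named here for their list were not chosen by a rule but after their values were seen.

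**Figure D5:**
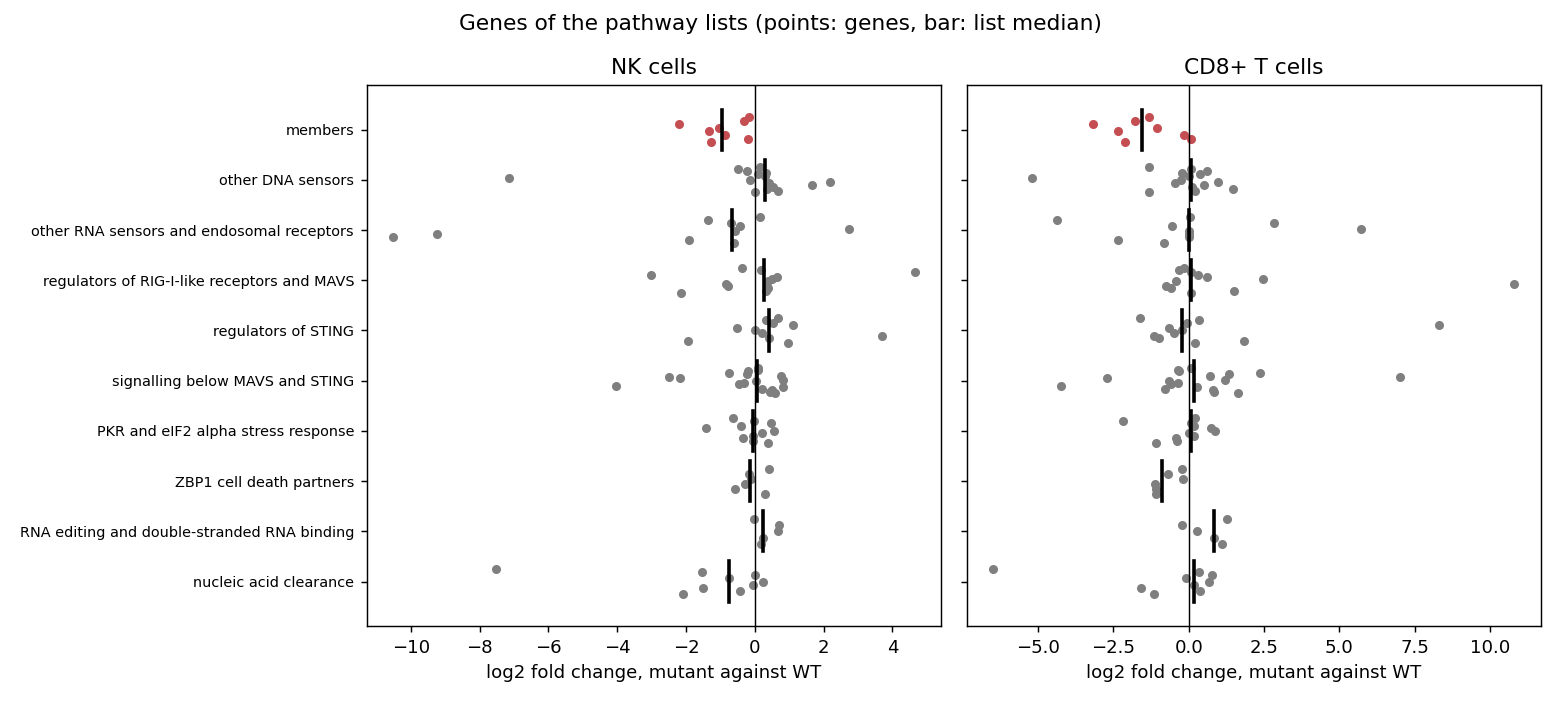
log2 fold change of both mutants together against WT (x axis) for each tested gene of the 8 members (red) and of 9 lists of related genes (grey), with black bars at the list medians; NK cells left, CD8+ T cells right, with different x ranges. The members have medians of -0.97 and -1.54, and the other lists lie between -0.75 and 0.42 in NK cells and between -0.88 and 0.85 in CD8+ T cells.

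To describe which genes varied most like each member, Pearson's r of log2 CPM was computed over the 12 libraries against the 8828 genes whose mean normalized count was 100 or more. These libraries share cell types and genotypes, and the r are given as a description. Dhx58 was most like Ifi211 (0.966), Irf7 (0.934) and Ogfr (0.934), and Zbp1 most like Ifi27l2a (0.907), Samhd1 (0.903) and Bst2 (0.867). For Ddx58 the closest genes were Ttf1 (0.918), Rtp4 (0.885) and Isca1 (0.883), and for Ifih1 they were H2-T24 (0.927), Rnf220 (0.918) and Wsb1 (0.905). Adar had Rnf220 (0.962), Cuedc2 (0.955) and Lrrc8a (0.924), and Eif2ak2 had Apbb1ip (0.922), Asb3 (0.913) and Smim15 (0.867). The adaptor Mavs was closest to BC035044 (0.933), Cad (0.925) and Sepsecs (0.912), and Tmem173 to Stard3 (0.94), Pnpla6 (0.927) and Appl2 (0.907). Members were not compared with each other, and Irf7 and Samhd1 were the genes that stood both in these groups and among the list genes called above.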

How the data were processed

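The authors sorted 300 cells per library, prepared cDNA by Smart-seq2 with Nextera tagmentation, trimmed reads with Trimmomatic, aligned them to GRCm38 with STAR and counted reads over the exons of each gene with summarizeOverlaps. The deposited values are raw counts per gene. Molecular identifiers are not given in the sources, so that read counts overstate the number of molecules and floors (3 counts) cover counting error only.

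For the main test, edgeR 4.0.16 (R 4.3.3) was run with TMM scaling and the robust two-sided quasi-likelihood F-test in one model of 12 libraries with 6 group means, on 13129 genes whose mean normalized count reached 10. The p-values were adjusted by Benjamini-Hochberg over these genes. DESeq2 1.42.0, its size factors, no filter, leaving out each library, the replicate number as a block, the myeloid marker sum as a covariate and fits of 1 cell type alone were alternatives. The SE was taken from the fold change and its F statistic. RPKM used exon lengths of the GENCODE annotation, to which all 160 genes of the members and lists were matched, Mb21d1 under the synonym Cgas. Log2 CPM for correlations had a prior count of 2. The fitting code was tested on simulated data.

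The members and lists were chosen with earlier results of these data known. Named were all members, every list gene called, the 6 list genes with the smallest p in each cell type, and the 3 genes most like each member. In the counts by list, further genes were named after their values were seen.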

Additional observations from a re-analysis of the deposited data

Results flagged for a closer look

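Mavs stood out because the libraries of the KO groups moved in opposite directions in the 2 cell types. Both NK KO libraries, with 38.3 and 22.6 CPM, were below both NK WT libraries, with 71.3 and 132 CPM, and both CD8 KO libraries, with 57.4 and 51.3 CPM, were above both CD8 WT libraries, with 2.59 and 41.6 CPM. The test of the difference gave -3.04 ± 1.57 on the log2 scale (edgeR unadjusted p = 0.0816, FDR = 0.89), so it did not pass the threshold. The value ranged from -6.12 to -2.12 when any 1 library was left out, the former without CD8 WT replicate 2. This comparison was chosen after seeing the data.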

How the results depend on the processing

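Across the comparisons with WT, the count of members called by DESeq2 was 1 in NK KE, 1 in NK mutants, 2 in CD8 KO and 1 in CD8 KE, in place of 0. These stand beside 2.08%, 2.32%, 0.944% and 1.49% of all genes that DESeq2 called as lower. With no filter on low counts the count of members called was 1 in NK KE, 2 in CD8 KO, 1 in CD8 KE, 3 in CD8 mutants (Zbp1, Ddx58 and Dhx58) and 4 in mutants of both cell types (also Ifih1), beside 0.932%, 0.35%, 0.472%, 0.624% and 1.43% of 23707 genes that were lower. The count for CD8 mutants was 0 in place of 1 with the myeloid covariate, beside 11 of 13129 genes that were lower. With CD8 libraries alone it was also 0, beside 0 of 12572 genes. For both cell types it was 0 with the covariate, beside 0 of 13129 genes. These last 2 fits called no gene at all, so their 0 is not particular to the members. Between NK and CD8 mutants the count of members called was 0 to 2 without any 1 library. Of the list genes, DESeq2 called 9 in NK, 9 in CD8 and 9 in both cell types, beside 2.32%, 1.33% and 2.23% of all genes that were lower and 1.1%, 1.14% and 1.19% that were higher, and the unfiltered fit called 7, 7 and 9, beside 1.4%, 0.624% and 1.43% of all genes that were lower and 0.177%, 0.257% and 0.266% that were higher. With the covariate 0 list genes were called in CD8 mutants, beside 11 of 13129 genes that were lower and 5 that were higher. Over both cell types it called 0 list genes, beside 0 of 13129 genes in either direction.

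The replicate numbers did not pair the libraries (correlations of deviations from -0.03 to 0.04 over 15 pairs of groups). With the replicate number as a block, 0 members and 0 list genes were called in CD8 mutants (Zbp1 FDR = 0.0533 in edgeR), Zbp1 kept its call over both cell types with -1.70 (edgeR FDR = 0.0193), and the CD8 estimate of Dhx58 was -4.17.

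Of the estimates given, these changed sign. With the covariate Tmem173 was 0.30 in NK and 0.20 in both cell types. Leaving out any 1 library gave, in NK mutants, -0.60 to 0.0044 for Ddx58 and -0.40 to 0.050 for Adar, in CD8 mutants -1.09 to 2.93 for Mavs, -0.43 to 0.89 for Tmem173 and -7.26 to 2.21 for Ifi204, over both -0.98 to 1.03 for Mavs and -0.31 to 0.35 for Tmem173, and between CD8 KO and KE -0.45 to 0.12 for Zbp1. The causes were not tested. With 2 libraries a group, the SE of the members' estimates within a cell type ran from 0.29 to 1.45 on the log2 scale for both mutants together and from 0.36 to 1.89 for each mutant alone, which limits what could be detected.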
